A study of Mus musculus with 5 samples.

Results

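The HoxA cluster is a row of homeobox genes on mouse chromosome 6, and 9 of them (Hoxa2, Hoxa3, Hoxa4, Hoxa5, Hoxa6, Hoxa7, Hoxa9, Hoxa10 and Hoxa11) were followed here by their symbols among 32285 annotated genes. All 9 had unique molecular identifiers (UMIs) in the data, 76082 in total. Hox genes encode DNA-binding proteins that assign position along the body axis. Within a cluster, the genes at the 3′ end are usually switched on earlier and more anteriorly than those at the 5′ end, a property called collinearity, and in the caudal epiblast and the mesoderm leaving the primitive streak this activation is known to depend on Wnt and FGF signaling and on Cdx proteins.

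Single-cell transcriptomes came from 5 libraries of mouse epiblast stem cells (EpiSCs), a pluripotent line that represents the postimplantation epiblast. All cultures had been differentiated for 3 days in N2B27 medium with 1 µM of the Wnt pathway agonist Chi and 8 ng/ml BMP4. They differed in the FGF signal: 1 received 30 nM of the FGF receptor inhibitor AZD4547 (FGFRi, with no FGF2 dose given), and the others received 0, 0.75, 3 or 12 ng/ml FGF2. Values below are listed in this order, from FGFRi to 12 ng/ml. Each condition was 1 library from 1 culture of 1 cell line, so that no test between conditions was possible, and the intervals given are exact 95% intervals that cover counting error only.

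After removal of barcodes with fewer than 2500 genes or more than 10% mitochondrial UMIs, 1701, 1696, 2725, 2125 and 2406 cells remained, with median depths between 24408 and 29661.5 UMIs per cell. Between 0 and 2 barcodes were shared by any pair of libraries, 7 in all. Markers of the primitive streak and its mesoderm were higher with the dose: T was at 0.75, 26.7, 92.7, 205 and 208 CPM (UMIs normalized to the total of the library) and Tbx6, a presomitic gene, at 0.23, 5.86, 11.5, 30.4 and 49.0 CPM. The pluripotency gene Pou5f1 was at 1.74 to 11.3 CPM. The 6 epiblast genes listed, with Pou5f1, summed to 48.6 CPM in FGFRi and 60.8 to 86.1 CPM elsewhere. Among them Otx2 was at least 2-fold lower at 0 ng/ml than in FGFRi. The endoderm gene Ttr was at 0 to 0.01 CPM, and the 4 endoderm genes listed summed to 0.40 to 3.45 CPM. In the FGFRi library T and Tbx6 were near 0 and the mesenchymal gene Acta2 was at 1008 CPM, against 14.9 to 141 CPM in the other 4. The 5 mesenchymal genes on the list were all at least 2-fold lower at 0 ng/ml than in FGFRi, so a whole-library level of a Hox gene compares cultures of different make-up, whose part in the levels is given by cluster below.

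In the GENCODE annotation of GRCm38, the assembly that mm10 denotes, all 9 genes lie on the minus strand in numerical order. Hoxa2 (ENSMUSG00000014704, chr6:52162417-52164831) is the gene nearest the 3′ end of the cluster, and Hoxa11 (ENSMUSG00000038210, chr6:52242106-52245810) the one nearest the 5′ end, so that the set spans 83394 bases. Between them lie Hoxa3 (chr6:52169062-52213336), Hoxa4 (chr6:52189671-52191753), Hoxa5 (chr6:52201754-52204587), Hoxa6 (chr6:52206288-52208722), Hoxa7 (chr6:52214491-52221854), Hoxa9 (chr6:52223100-52231089) and Hoxa10 (chr6:52231197-52240854). The gene model of Hoxa3 runs across Hoxa4, Hoxa5 and Hoxa6 through its introns, but no pair of the 9 shares exonic bases. On the opposite strand, the long noncoding RNA Hoxaas3 overlaps 586 exonic bases of Hoxa7 (20.4%), Gm29430 overlaps 255 of Hoxa4 (16.0%) and Hoxa11os overlaps 800 of Hoxa11 (35.0%). Whether strand was used in the counting is not stated in the sources used here.

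The promoters are shown for Hoxa7 and the genes on its 5′ side, over which the difference between FGFRi and 0 ng/ml described below went from its highest to its lowest value. They are RefSeq windows on GRCm38.p6, each the 250 bases before an annotated start, read from 5′ to 3′ on the minus strand. Capitals mark TTTATG, a core of sites that Cdx proteins are known to bind, in Hoxa7, and CTTTGA, a core of TCF/LEF sites, in the Hoxa10 window nearer to Hoxa9, both searched on both strands.
Hoxa7 (chr6:52218574-52218823): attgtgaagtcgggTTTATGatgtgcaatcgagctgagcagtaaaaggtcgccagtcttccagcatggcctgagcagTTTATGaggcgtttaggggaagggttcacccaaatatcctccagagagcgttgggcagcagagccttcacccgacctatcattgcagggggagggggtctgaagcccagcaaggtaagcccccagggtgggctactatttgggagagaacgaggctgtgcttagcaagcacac
Hoxa9 (chr6:52227371-52227620): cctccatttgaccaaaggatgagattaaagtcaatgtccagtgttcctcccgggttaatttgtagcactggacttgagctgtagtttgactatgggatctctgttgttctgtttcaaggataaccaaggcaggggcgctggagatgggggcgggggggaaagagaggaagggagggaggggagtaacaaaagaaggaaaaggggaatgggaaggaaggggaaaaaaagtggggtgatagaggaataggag
Hoxa10, start nearer to Hoxa9 (chr6:52234940-52235189): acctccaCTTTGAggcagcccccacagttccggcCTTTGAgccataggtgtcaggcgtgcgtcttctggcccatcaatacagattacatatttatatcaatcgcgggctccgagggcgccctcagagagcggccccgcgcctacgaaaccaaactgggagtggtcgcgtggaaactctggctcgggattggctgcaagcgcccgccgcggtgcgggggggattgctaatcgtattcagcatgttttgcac
Hoxa10, start nearer to Hoxa11 (chr6:52240855-52241104): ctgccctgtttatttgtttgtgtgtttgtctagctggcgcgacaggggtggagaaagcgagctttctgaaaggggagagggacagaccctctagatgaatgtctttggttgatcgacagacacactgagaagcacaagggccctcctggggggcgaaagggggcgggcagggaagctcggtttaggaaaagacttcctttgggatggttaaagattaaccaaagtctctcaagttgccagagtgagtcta
Hoxa11 (chr6:52245811-52246060): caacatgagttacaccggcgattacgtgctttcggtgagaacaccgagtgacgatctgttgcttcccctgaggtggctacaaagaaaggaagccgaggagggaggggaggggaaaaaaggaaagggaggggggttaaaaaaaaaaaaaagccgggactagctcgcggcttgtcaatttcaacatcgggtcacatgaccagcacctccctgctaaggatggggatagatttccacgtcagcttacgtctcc

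The RefSeq table held 9 windows for 8 of the genes, and Hoxa4 had none. TTTATG occurred 2 times in the Hoxa7 window, 236 and 173 bases before the start, and was not found in the windows of Hoxa2, Hoxa3, Hoxa5, Hoxa6, Hoxa9, Hoxa10 or Hoxa11. Of 32851 such windows in the mouse genome, 10.8% held TTTATG at least once and 1.02% at least 2 times. CTTTGA occurred 2 times in 1 of the Hoxa10 windows, 243 and 216 bases before the start, and in none of the other 8, against 13.8% of all windows. The matches describe these letters in these windows and were not tested as binding sites.

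The summed level of the 9 genes was lowest under FGFR inhibition and highest at 3 ng/ml FGF2. It was 37.6 CPM (35.9 to 39.4) in FGFRi and 207 CPM (203 to 211) without FGF2. With 0.75, 3 and 12 ng/ml it was 301 CPM (297 to 305), 310 CPM (306 to 315) and 254 CPM (250 to 257). The step from FGFRi to 0 ng/ml was 5.50-fold (5.24 to 5.79), and the whole dose range from 0 to 12 ng/ml added 1.23-fold (1.20 to 1.26). The order of the 5 libraries was separated at every step beyond counting error, the smallest being the 1.03-fold difference (1.01 to 1.05) between 0.75 and 3 ng/ml. In the same libraries the summed HoxB genes differed by 15.7-fold, HoxC by 9.30-fold and HoxD by 5.81-fold between FGFRi and 0 ng/ml, and by 1.85-fold, 1.15-fold and 1.80-fold between 0 and 12 ng/ml.

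Among the genes at the 3′ end, Hoxa2, which patterns the hindbrain and branchial arches, was higher with each step of the series. It was at 3.20, 9.91, 14.3, 15.7 and 17.2 CPM, each library above the one before. Hoxa3, which acts in the pharyngeal arches and upper neck, was the most abundant of this end at 6.88, 25.5, 43.1, 53.8 and 46.9 CPM. It was highest at 3 ng/ml and 1.15-fold (1.09 to 1.20) lower at 12 ng/ml. Hoxa4 was at 0.899, 6.09, 9.03, 11.7 and 9.54 CPM, with the same peak, and its levels at 0.75 and 12 ng/ml did not differ beyond counting error. Hoxa5, a regulator of cervical and thoracic identity and of lung development, was at 1.92, 10.2, 14.4, 15.1 and 14.9 CPM, and the 3 libraries with FGF2 were not separated from each other.

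In the middle of the cluster, Hoxa6 was the least detected gene, with 4, 50, 107, 69 and 61 UMIs per library, or 0.0836, 0.880, 1.31, 1.07 and 0.862 CPM. Its 4 libraries without the inhibitor did not differ beyond counting error between neighbours when sorted by level, but 0.75 ng/ml was 1.49-fold (1.06 to 2.13) above 0 ng/ml and 1.52-fold (1.10 to 2.12) above 12 ng/ml. Hoxa7, which is active in the trunk region, was the most abundant HoxA gene in every library but FGFRi, at 4.54, 78.4, 127, 120 and 79.2 CPM. It was highest at 0.75 ng/ml, and its level at 12 ng/ml was back at that without FGF2 (ratio 1.01, 0.971 to 1.05), 1.60-fold below the level at 0.75 ng/ml.

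At the 5′ end, Hoxa9, known from the lower trunk and from leukemia, was at 8.36, 51.5, 66.9, 67.3 and 57.0 CPM. Its levels at 0.75 and 3 ng/ml were not separated, and that at 12 ng/ml lay between them and the library without FGF2. Hoxa10, a gene of the lumbar region and the reproductive tract, was at 8.61 CPM in FGFRi and nearly level without it, at 19.4, 20.4, 21.8 and 22.3 CPM, neighbouring libraries not being separated. Hoxa11, which acts in the kidney, the limb and the sacral region, was at 3.07, 4.98, 4.26, 3.98 and 5.75 CPM. It was the 1 gene of the 9 with its lowest FGF2-treated value at 3 ng/ml, not separated from that at 0.75 ng/ml (ratio 1.07, 0.908 to 1.26). The value at 12 ng/ml was 1.45-fold (1.23 to 1.70) above that at 3 ng/ml.

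**Figure D1:**
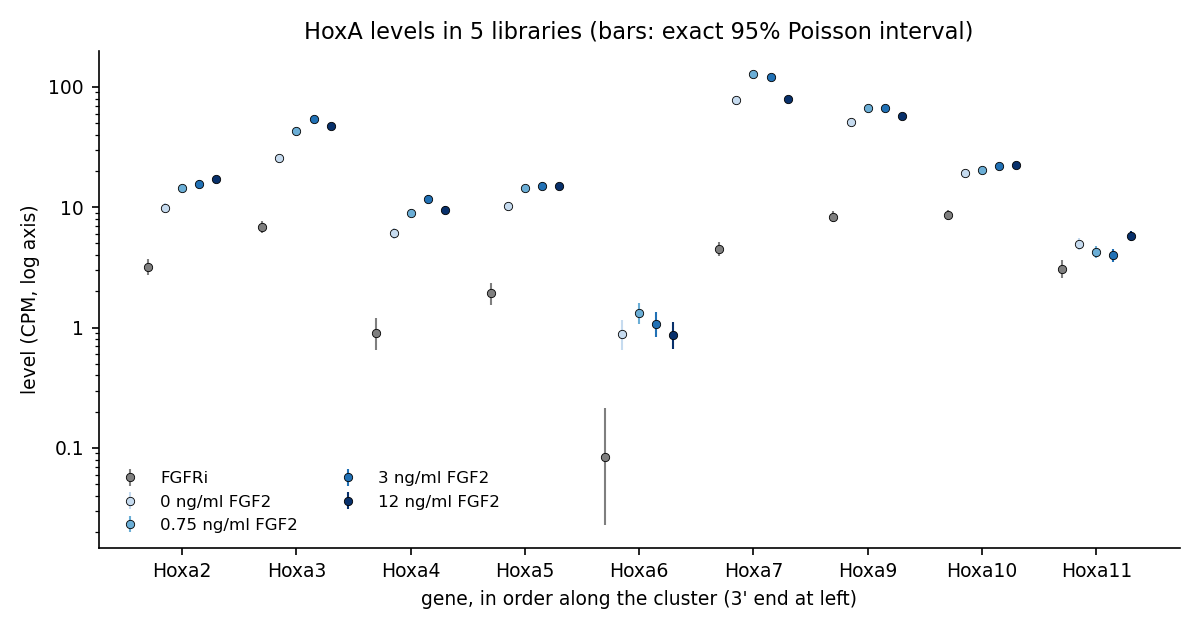
Level of each of the 9 genes (CPM, log axis) in each of the 5 libraries, with genes in their order along the cluster and bars giving the exact 95% Poisson interval. The FGFRi library is lowest for every gene, and the distance to the other 4 libraries is widest for Hoxa7 (4.54 against 78.4 to 127 CPM) and narrowest for Hoxa11 (3.07 against 3.98 to 5.75 CPM).

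Read in the order of the genes, the step from FGFRi to 0 ng/ml was largest in the middle of the cluster and smaller towards both ends. On the log2 scale the difference was 1.63 for Hoxa2, 1.89 for Hoxa3, 2.76 for Hoxa4, 2.41 for Hoxa5, 3.40 for Hoxa6, 4.11 for Hoxa7, 2.62 for Hoxa9, 1.17 for Hoxa10 and 0.70 for Hoxa11. Hoxa7 was 17.3-fold higher (15.1 to 19.9) without the inhibitor, and Hoxa11 1.62-fold (1.32 to 1.99). The interval of Hoxa6 was wide, at 1.95 to 5.33 on the log2 scale, because 4 UMIs were seen in FGFRi. The maximum at Hoxa7 was kept with all deposited barcodes, with a limit of 5% mitochondrial UMIs, with TMM scaling factors and with every cell given equal weight.

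The dose series gave a different profile. Between 0 and 12 ng/ml the log2 difference was 0.80 for Hoxa2, 0.88 for Hoxa3, 0.65 for Hoxa4 and 0.55 for Hoxa5, but -0.03 for Hoxa6, 0.01 for Hoxa7, 0.15 for Hoxa9, 0.20 for Hoxa10 and 0.21 for Hoxa11. The intervals of the first 4 genes all lay above those of Hoxa7, Hoxa9 and Hoxa10. In the whole libraries the 4 genes of the 3′ end were thus higher at the top dose by 1.46-fold to 1.84-fold, and the 5 others by at most 1.15-fold. This profile was not kept with the cluster shares of the 0 ng/ml library applied to both, a calculation described below. It covered the 4 clusters with at least 50 cells in both libraries, or 89.6% of cells at 0 and 83.1% at 12 ng/ml. Over these cells Hoxa2 was at 1.02 times its level without FGF2, Hoxa3 at 1.31, Hoxa4 at 1.24 and Hoxa5 at 0.942. Hoxa7 was at 1.37 and Hoxa10 at 1.13. Hoxa13, beyond Hoxa11 at the 5′ end, stayed at 0.40 to 0.92 CPM in all 5 libraries.

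**Figure D2:**
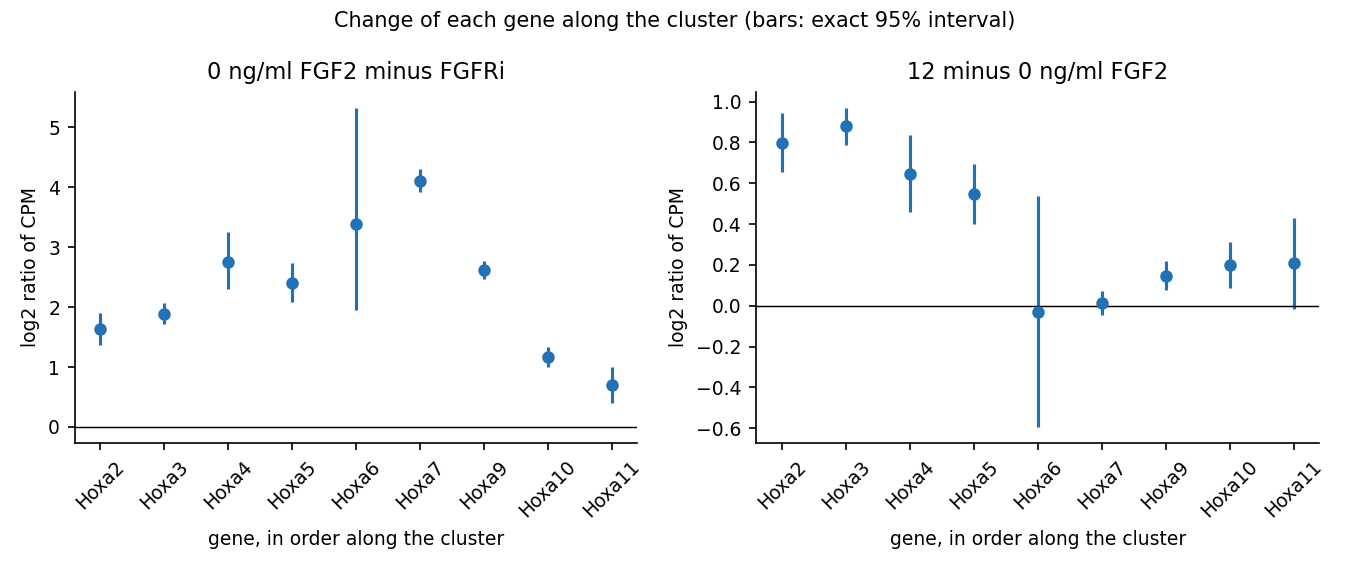
Log2 ratio of the CPM of each gene, in its order along the cluster, for 0 ng/ml FGF2 over FGFRi (left) and for 12 over 0 ng/ml FGF2 (right), with exact 95% intervals. On the left the values climb from 1.63 at Hoxa2 to 4.11 at Hoxa7 and drop to 0.70 at Hoxa11, and on the right the 4 genes from Hoxa2 to Hoxa5 lie between 0.55 and 0.88 and the other 5 between -0.03 and 0.21.

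A size rule gave the background for these steps: a gene was counted where its levels in a pair of libraries differed 2-fold or more and the higher one was 10 CPM or more. From FGFRi to 0 ng/ml, 5 of the 5 HoxA genes that reached this level were higher (Hoxa3, Hoxa5, Hoxa7, Hoxa9 and Hoxa10), against 2.62% of the 8445 genes measured at this level, and 0 were lower, against 5.38%. The other 4 were under 10 CPM in both libraries, Hoxa2 by a small margin. The median log2 difference of the 5 was 2.41, beside 0.00 over all genes at this level. In the dose series 0 HoxA genes passed the rule in the comparisons counted, of the 6 or 7 that reached this level in each. The background was 0.308% higher and 1.41% lower from 0 to 0.75 ng/ml, 0.336% and 0.523% from 0.75 to 3 ng/ml, 0.0631% and 0.0252% from 3 to 12 ng/ml, and 1.87% and 4.04% from 0 to 12 ng/ml. The pair 0 and 3 ng/ml was not among them, and there Hoxa3 was 2.11-fold higher (1.98 to 2.25) at 3 ng/ml, with 25.5 and 53.8 CPM. The share of all genes past the rule was not counted for this pair, so this value has no background beside it.

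The composition of the HoxA transcripts differed between libraries. A 3′ kit counts each captured transcript once whatever its length, so shares of UMIs were compared without scaling by length, and they depend on how well each 3′ end is annotated. Hoxa9, Hoxa10 and Hoxa11 together made 53.4% (51.0 to 55.7) of the HoxA UMIs in FGFRi and 36.7%, 30.4%, 30.0% and 33.5% in the other libraries. Hoxa10 accounted for most of this difference, with 22.9% in FGFRi against 6.77% to 9.37% elsewhere, while the share of Hoxa9 stayed between 21.7% and 24.9% in all 5 libraries. Hoxa7 made 12.1%, 37.9%, 42.2%, 38.6% and 31.2% of the UMIs. The 4 genes from Hoxa2 to Hoxa5 made 34.3% (32.1 to 36.6) in FGFRi, and went from 25.0% without FGF2 to 34.9% at 12 ng/ml.

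**Figure D3:**
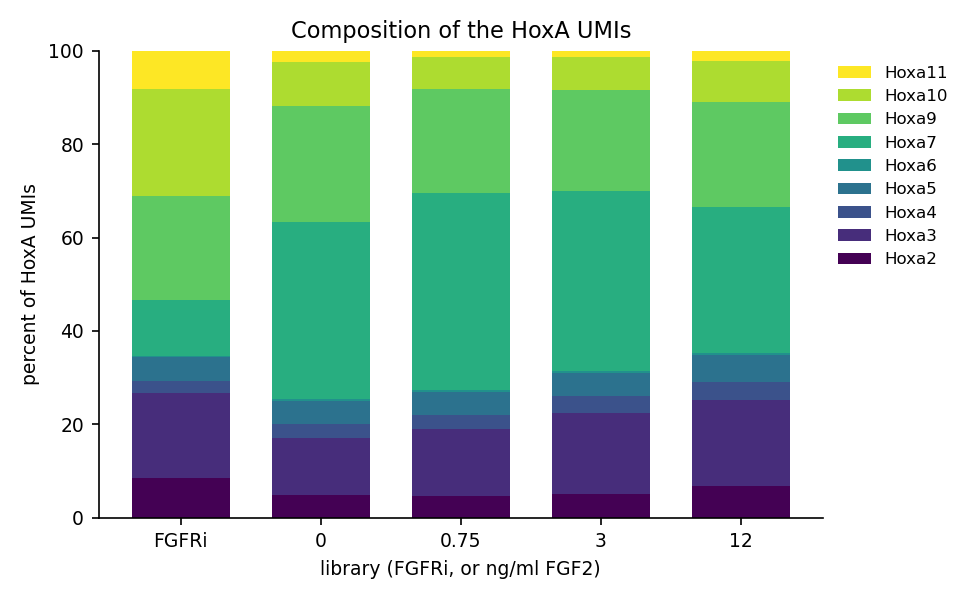
Percent of the HoxA UMIs of a library that came from each gene, stacked in cluster order from Hoxa2 at the bottom to Hoxa11 at the top, with 1 bar per library. The Hoxa7 segment covers 12.1% in FGFRi and 31.2% to 42.2% in the other 4 libraries, and the Hoxa10 segment 22.9% against 6.77% to 9.37%.

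The share of cells with a HoxA UMI had the same order of libraries as the summed level at 5000 UMIs per cell, but not at greater depth. With each cell thinned to 5000 UMIs, which left out 0 cells, 15.05%, 49.0%, 65.2%, 70.7% and 61.4% of cells had a UMI of any of the 9 genes. Without thinning the shares were 35.7%, 70.6%, 88.2%, 93.7% and 91.5%, so that 12 ng/ml stood above 0.75 ng/ml. At 10000 UMIs these 2 libraries had 80.7% and 78.8%, with overlapping intervals. As a possible background, the cluster with the lowest share in each library was taken. This choice by itself puts it under the share of the whole library. At 0 ng/ml, 118 cells led by the placental genes Ascl2 and Esx1 (cluster 6 below) had 4.24% (1.39 to 9.61) at a median depth of 31328 UMIs, against 29661.5 over the library. In FGFRi the lowest share was 11.7% (9.53 to 14.2) at a depth of 23524 UMIs, against 24408 over the library. That cluster held 768 of the 1701 cells, so in FGFRi it is no separate background. At 3 and 12 ng/ml the lowest shares, 32.3% and 35.5%, were in cluster 1 below. It had HoxA at 134 and 123 CPM there, so it is no background at these doses either. At 0.75 ng/ml the interval of the lowest share ran from 12.5% to 29.5%. Hoxa7 was found in 2.53%, 26.6%, 38.6%, 37.3% and 26.1% of thinned cells, Hoxa9 in 3.94%, 19.9%, 25.1%, 25.9% and 21.2%, and Hoxa3 in 3.76%, 13.3%, 19.6%, 24.3% and 20.3%. Hoxa6 was seen in 0 of 1701 thinned FGFRi cells, where 3 counts would make a share of 0.176% with a UMI at that depth, and in 4 cells (0.235%) without thinning.

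The number of UMIs per positive cell was low. A thinned cell with Hoxa7 held on average 1.19, 1.59, 1.73, 1.73 and 1.49 UMIs of it, and for Hoxa2, Hoxa4 and Hoxa5 the mean was 1.00 to 1.11 in every library. At this depth 0.88% of FGFRi cells and 8.61% to 13.0% of the other cells had UMIs of 3 or more of the 9 genes. Genes of the 2 ends were found together more often than the product of their shares would give: cells with both a UMI of Hoxa2 to Hoxa5 and one of Hoxa9 to Hoxa11 were 2.08, 1.62, 1.24, 1.16 and 1.16 times as many. The pair Hoxa10 and Hoxa11 was found together 7.26 times (3.32 to 13.8) as often as the product in FGFRi and 3.26 to 3.69 times in the other libraries, on 9 to 23 cells each.

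**Figure D4:**
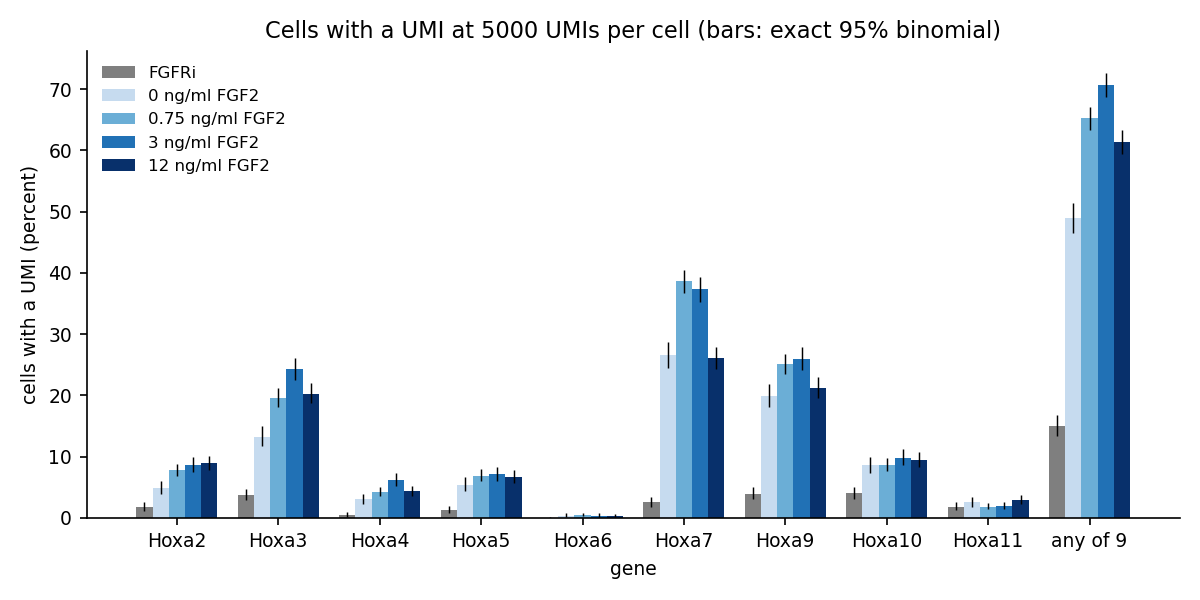
Percent of cells with at least 1 UMI of each gene, and of any of the 9, after thinning every cell to 5000 UMIs, with bars giving exact 95% binomial intervals. For any gene the bars stand at 15.05% in FGFRi and at 49.0% to 70.7% in the other libraries, and for Hoxa10 and Hoxa11 the 4 libraries without the inhibitor stay within 8.55% to 9.84% and 1.83% to 2.95%.

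Cells with Cdx2, the caudal homeobox factor known to act on Hox genes, carried more HoxA in every library. At 5000 UMIs per cell, the HoxA sum of 9 genes was at 196, 363, 360, 361 and 290 CPM in cells with a Cdx2 UMI, and in cells without one at 40.1, 145, 251, 276 and 203 CPM. The ratio was 4.89 (3.56 to 6.58) in FGFRi, where 3.06% of cells had Cdx2, 2.50 (2.28 to 2.75) without FGF2 and 1.31 to 1.44 at the 3 doses. The size of the ratio depended on the gate: with at least 2 Cdx2 UMIs it was 9.96 in FGFRi, and with the gate at 10000 UMIs per cell the 0 and 0.75 ng/ml libraries gave 4.14 and 2.23. With Cdx2 the level was within 360 to 363 CPM at 0, 0.75 and 3 ng/ml, while without it the level was higher with each of these doses, and the cells with Cdx2 were 35.8%, 55.7% and 63.2%. A cell with no Cdx2 UMI at this depth may still express the gene. Cdx2 itself was at 4.64, 109, 188, 218 and 185 CPM, and Cdx1 and Cdx4, the related factors, at or under 0.20 CPM throughout.

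Cells with Cdh1, the gene of the epithelial adhesion protein E-cadherin, carried less HoxA, and the gap was smaller with each dose. The HoxA sum of 9 genes was at 20.4, 136, 221, 288 and 232 CPM in cells with a Cdh1 UMI and in cells without one at 55.4, 266, 343, 338 and 257 CPM. The level without Cdh1 was therefore 2.71, 1.95, 1.55, 1.17 and 1.11 times that with Cdh1, the last interval (0.994 to 1.23) including 1. Cells with Tbx6 had less Hoxa7 than the rest at 0.75, 3 and 12 ng/ml (ratios 0.63, 0.54 and 0.74), while their Hoxa2 was at 1.48, 1.44 and 1.48 times the other cells, of which the value at 12 ng/ml (1.08 to 1.99) was beyond counting error. Cells with Hand1, a gene of lateral and extraembryonic mesoderm, had less Hoxa7 at all 4 FGF2 doses (ratios 0.44, 0.48, 0.57 and 0.69), whereas in FGFRi their Hoxa10 and Hoxa11 UMIs together were 2.57-fold (1.74 to 3.78) above those of the other cells, and at 12 ng/ml 1.44-fold (1.04 to 1.96).

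To see which cells carried the transcripts, the 10653 cells were clustered on 2596 variable genes with every Hox gene and HoxA noncoding RNA left out. Of the 7 clusters, cluster 0 (led by Epha5, Zbtb16 and Lix1) had the highest HoxA level, 436 CPM (431 to 441). Cluster 3 (Dlx5, Rab25 and Trim29, with Cdh1 at 119 CPM) had 331 CPM, cluster 2 (Frzb, Pcdh19 and Tbx6) 247 CPM and cluster 4 (Sprr2a3, Psmb8 and Fst) 218 CPM. Cluster 1 (Sfn, Mal and Igfbp2, with Cdh1 at 133 CPM) had 80.2 CPM. The lowest were cluster 5 (Lce1h, Col1a1 and Acta2), with 33.4 CPM and 804 of its 854 cells from FGFRi, and cluster 6 (Ascl2, Esx1 and Gm9112), with 28.9 CPM. Since 1 library makes up most of cluster 5, cells of a type and cells of that library cannot be told apart there.

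The genes were unevenly spread over these clusters. In cluster 3, Hoxa7 was at 174 CPM and Hoxa10 at 15.8 CPM, and Hoxa9, Hoxa10 and Hoxa11 made 25.4% of the HoxA UMIs. In cluster 5 they made 67.6%, with Hoxa10 at 10.1 and Hoxa7 at 3.07 CPM, values that a minority of its cells carried, as the finer clusters below show. Cluster 2 had the highest Hoxa2 level, 23.8 CPM, and 61.4 CPM of Hoxa7. Across 24 groups of at least 50 cells, formed by cluster and library, Pearson's r of log2(CPM + 1) was 0.96 between Hoxa3 and Hoxa4, 0.95 between Hoxa5 and Hoxa9, 0.92 between Hoxa7 and Hoxa9 and 0.89 between Hoxa10 and Hoxa11. It was lowest, at 0.37, between Hoxa7 and Hoxa11. These groups share libraries and clusters, so the correlations are a description.

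Within FGFRi, 71 cells of cluster 0, 4.17% of the library, held 23.8% (21.8 to 25.8) of its HoxA UMIs and 35.9% of its Hoxa7 UMIs. The 804 cells of cluster 5 held 61.4% of the Hoxa10 and Hoxa11 UMIs. These clusters were not uniform, and a finer clustering into 10 clusters (resolution 0.5 in place of 0.33), examined in this way after the data had been seen, divided the FGFRi cells differently. Its cluster 8 took 48 of the 71 cells of cluster 0 and 276 of the 804 cells of cluster 5, and its cluster 7 took 505 of the 804.

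In the finer clustering, 342 FGFRi cells (cluster 8, with little Cdh1 at 6.48 CPM) had 139 CPM of HoxA and held 61.0% of the HoxA UMIs of the library and 80.1% of those of Hoxa10 and Hoxa11. Hoxa9 was at 42.7, Hoxa10 at 41.3 and Hoxa11 at 15.6 CPM there, and these 3 genes made 71.5% of the HoxA UMIs. The 506 cells of cluster 7, with Acta2 at 2122 CPM, had 6.25 CPM of HoxA. The 631 cells of cluster 6, with Cdh1 at 158 CPM, had 19.9 CPM, of which Hoxa9, Hoxa10 and Hoxa11 made 6.51%, and they held 51.9% of the Hoxa2 and Hoxa3 UMIs of the library. So under the inhibitor most transcripts of the 5′ genes lay in 20.1% of the cells. Of the Hoxa2 and Hoxa3 UMIs, cluster 8 held 28.4%, less than cluster 6, which made 37.1% of the cells. The levels of Hoxa2 and Hoxa3 were no lower in cluster 8, at 6.73 and 10.7 CPM, than in cluster 6, at 4.24 and 10.5 CPM.

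Steps within a cluster depended on how finely the cells were divided. In cluster 1 at the coarser resolution, Hoxa7 was 6.20-fold higher (4.76 to 8.17) at 0 ng/ml than in FGFRi, Hoxa9 8.34-fold (6.25 to 11.3) and Hoxa10 3.41-fold (2.66 to 4.41), while Hoxa2 and Hoxa3 were lower, from 3.97 to 2.67 CPM and from 9.47 to 6.87 CPM. The finer clustering placed 610 of the 768 FGFRi cells of cluster 1 in its cluster 6 but 481 of the 591 cells at 0 ng/ml in its cluster 3. Within the finer cluster 3, Hoxa7 was 6.40-fold higher (3.77 to 11.8), Hoxa9 4.13-fold (2.71 to 6.59) and Hoxa10 1.60-fold (1.14 to 2.30), and Hoxa2 and Hoxa3 were not lower, at ratios of 1.49 (0.706 to 3.64) and 1.65 (1.01 to 2.88). Within the finer cluster 6 the HoxA sum was at 19.9 and 19.2 CPM, a ratio of 0.967 (0.711 to 1.29).

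Under the inhibitor most HoxA UMIs lay in the cells of finer cluster 8. In this cluster Hoxa7 was 4.23-fold higher (3.33 to 5.40) at 0 ng/ml and Hoxa9 1.66-fold (1.39 to 1.98). Hoxa10 was at 41.3 and 48.2 CPM there, a ratio of 1.17 (0.951 to 1.43), and Hoxa11 at 15.6 and 13.4 CPM, a ratio of 0.860 (0.584 to 1.24). Hoxa7 thus differed between the libraries within these cells, and for Hoxa10 and Hoxa11 no difference was detectable at this depth. The cells of the 2 libraries were not alike in other genes, with Cdx2 at 13.9 CPM in FGFRi and 76.5 CPM at 0 ng/ml and Acta2 at 323 and 55.1 CPM, and the part of this in the Hox levels was not tested.

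Along the dose series the clusters moved in opposite directions. In the clusters with Cdh1 at 119 and 133 CPM the HoxA level was higher at 12 than at 0 ng/ml: it was 247, 320, 406 and 471 CPM in cluster 3 and 74.8, 114, 134 and 123 CPM in cluster 1. In the clusters with little Cdh1 (11.9 and 3.65 CPM) it was lower: 468, 476, 426 and 374 CPM in cluster 0 and 317, 269, 253 and 228 CPM in cluster 2. Hoxa7 was 2.10-fold higher (1.95 to 2.27) in cluster 3 and at 0.511 times (0.457 to 0.573) in cluster 2. Hoxa10 was 3.13-fold higher (2.47 to 3.97) in cluster 3 and 0.609 times (0.533 to 0.695) in cluster 0, beside 1.15-fold over all cells. In the finer clustering the directions of the sum were the same, with 2 clusters higher at 12 ng/ml (1.89-fold and 1.56-fold) and 3 lower (0.707, 0.797 and 0.787 times).

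**Figure D5:**
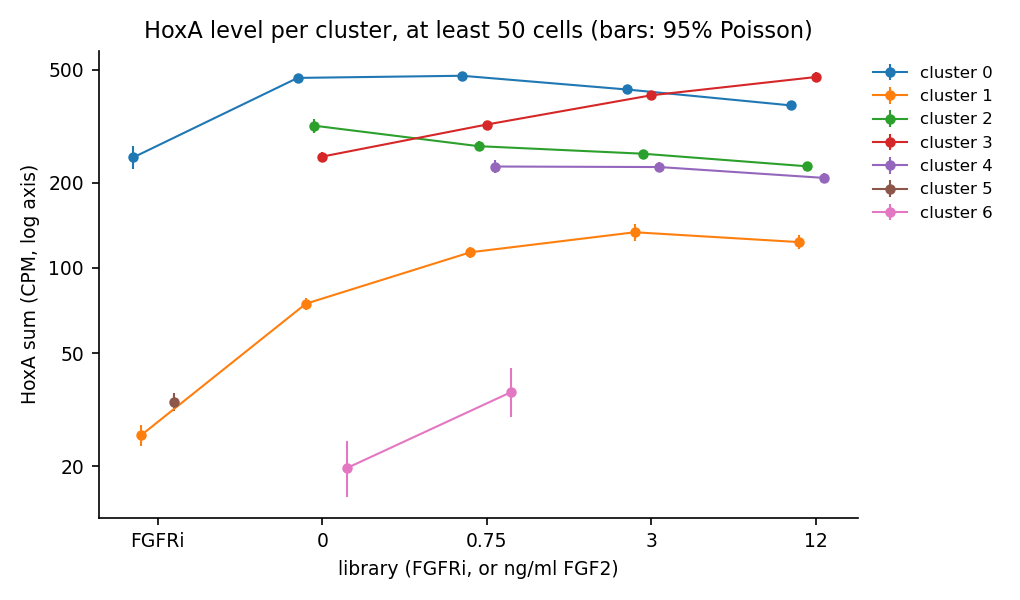
Summed HoxA level (CPM, log axis) of each cluster in each library with at least 50 of its cells, with exact 95% Poisson intervals. From 0 to 12 ng/ml FGF2, cluster 3 goes from 247 to 471 CPM and cluster 1 from 74.8 to 123 CPM, while cluster 0 goes from 468 to 374 CPM and cluster 2 from 317 to 228 CPM.

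The make-up of the culture shifted at the same time. From 0 to 12 ng/ml the cells in cluster 2 made 6.96%, 12.0%, 26.5% and 45.4% of their libraries. Those in cluster 3, where Hoxa7 was at 255 CPM at 12 ng/ml, made 25.1%, 30.2%, 16.4% and 7.44%. A calculation added after the data had been seen covered the 5 clusters with at least 50 cells in both the 0.75 and the 12 ng/ml library. It applied the cluster shares of the 0.75 ng/ml library, as shares of UMIs and not of cells, to the cluster levels at 12 ng/ml. Hoxa7 came to 134 CPM, against 131 CPM at 0.75 ng/ml and an observed 79.4 CPM at 12 ng/ml. The ratio with the shares held was 1.02 (0.984 to 1.07), in place of 0.605 as observed. The HoxA sum gave 1.03 (1.00 to 1.05) in place of 0.819. From 3 to 12 ng/ml, with the shares of the 3 ng/ml library, Hoxa7 stayed lower at 0.887 (0.856 to 0.920) in place of 0.658, and the sum at 0.947 (0.927 to 0.967) in place of 0.813. From 0 to 12 ng/ml Hoxa7 was at 1.37 (1.31 to 1.43) in place of 0.989 over the 4 clusters compared, so that the result of holding the shares differed with the pair of doses. Between 0.75 and 12 ng/ml the lower Hoxa7 levels in clusters 0 and 2 were balanced by the higher one in cluster 3 in this average.

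Around the cluster, Hoxaas3, which lies on the opposite strand and overlaps exons of Hoxa3 and Hoxa7, was at 10.4, 193, 342, 461 and 458 CPM. Between 0.75 and 12 ng/ml it was 1.34-fold higher (1.32 to 1.36), where Hoxa7 was 1.60-fold lower. The pooled levels of cluster 0 also parted, Hoxaas3 going from 561 to 697 CPM and Hoxa7 from 204 to 136 CPM over these doses. The 2 transcripts were not compared cell by cell. At the 5′ end, Hoxa11os was at 2.82, 4.22, 3.57, 3.16 and 5.27 CPM and had the same order of libraries as Hoxa11. For Hoxa11 the libraries without the inhibitor were not separated between neighbours in this order. The noncoding RNA Hotairm1 was at 17.0, 25.7, 35.8, 45.7 and 42.6 CPM, and Hottip, beyond Hoxa13, at or under 0.03 CPM.

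Of the known cofactors and regulators on the lists examined, Polycomb and trithorax genes, which keep Hox clusters silent or active, gave 0 of 11 measured past the size rule in each of the 5 comparisons. Of all genes measured, 2.62% were higher and 5.38% lower from FGFRi to 0 ng/ml. From 0 to 12 ng/ml these shares were 1.87% and 4.04%, and the single dose steps had smaller ones. The 0 of 11 is near these shares and is no result about these genes. Ezh2, the Polycomb methyltransferase, was at 161, 233, 276, 291 and 292 CPM. Among the TALE factors, which bind DNA together with Hox proteins, 2 of 7 were lower at 0 ng/ml than in FGFRi and 2 of 7 lower at 12 than at 0 ng/ml, Meis1 (30.3, 13.0, 4.66, 2.07 and 2.60 CPM) and Meis2 (237, 96.9, 54.1, 34.7 and 45.4 CPM) in both cases. Of the signals, 3 of 6 were higher at 0 ng/ml than in FGFRi (Fgf8, Gdf11 and Rarg), and 3 of 8 were higher at 12 than at 0 ng/ml (Wnt3a, Fgf8 and Cyp26a1), with 0 lower in both.

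The genes whose level followed the HoxA sum most closely over the 24 groups were Sinhcaf (r = 0.97), Sp8 (0.95), Mllt3 (0.95), Gdf11 (0.95), a TGF-beta family ligand, and Trim24 (0.95), out of 7955 genes ranked. Cdx2 had r = 0.78 with the HoxA sum, 0.87 with Hoxa7 and 0.28 with Hoxa11. For Hoxa10 the closest gene was Wnt5a (0.90). Gdf11 was at 9.45, 25.0, 32.5, 30.8 and 25.5 CPM, with the same peak at 0.75 ng/ml as Hoxa7.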

How the data were processed

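The authors made the libraries with the 10x Genomics 3′ kit and counted reads on mm10 with Cell Ranger, and the deposited values are raw UMI counts per gene and barcode. The matrix headers give version 5.0.1. From these counts, levels were computed as CPM over summed UMIs of barcodes with at least 2500 genes and at most 10% mitochondrial UMIs, with exact Poisson, conditional or binomial 95% intervals (SciPy 1.17.1). With 1 library per condition no test was run. The members, lists and size rule were chosen with earlier results of these data known. Named genes were the 9 members, the listed neighbours, cofactors and regulators, and the 5 genes most like the HoxA sum. Cells were thinned to 5000 UMIs for shares and gates. Clusters came from Scanpy 1.11.5 (Leiden 0.33) without Hox genes and were not named. No doublet caller was run. TMM factors came from edgeR 4.0.16. Routines were tested on simulated data. Free RNA was not removed. Columns of no sample were 0.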

Additional observations from a re-analysis of the deposited data

Results flagged for a closer look

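The HoxA level per cluster changed in opposite directions between 0 and 12 ng/ml FGF2. On the log2 scale the change was 0.72 in cluster 1 and 0.93 in cluster 3, both with Cdh1, and -0.32 in cluster 0 and -0.48 in cluster 2, both with little Cdh1. The counting intervals of the first pair lay above 0 and those of the second pair below it. With 1 library per dose the difference between the clusters was not tested. Cluster 3 held 426 cells at 0 and 179 at 12 ng/ml, and cluster 2 held 118 and 1092.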

How the results depend on the processing

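No paired analysis was possible because each condition had 1 library. Of 87 alternative values, 57 stayed within the interval of the main value (counts within 1.5 times), 30 moved outside it and 0 changed direction. Only ratios could change direction, so shares, gene counts and cluster levels could not add to the last number. All deposited barcodes and TMM factors moved none of the values computed with them. The FGFRi to 0 ng/ml ratio of the HoxA sum was 5.20 with at most 5% mitochondrial UMIs and 5.03 with the mean of per-cell CPM, and the 0 to 12 ng/ml ratio 1.31 and 1.17. The share from Hoxa9, Hoxa10 and Hoxa11 was 29.6% at 0.75 ng/ml with equal cell weight and 30.7% at 3 ng/ml with at most 5% mitochondrial UMIs. A minimum of 50 CPM left 2 genes past the size rule from FGFRi to 0 ng/ml, fewer genes being eligible, and a ratio of 1.5 gave 2 from 0 to 0.75 ng/ml, 1 from 3 to 12 ng/ml and 2 from 0 to 12 ng/ml. Shares of cells with a HoxA UMI depend on depth by construction: 35.7%, 70.6%, 88.2%, 93.7% and 91.5% without thinning and 22.2%, 59.3%, 78.8%, 84.1% and 80.7% at 10000 UMIs. With at most 5% mitochondrial UMIs the 0 and 3 ng/ml libraries had 45.7% and 68.5%. The ratio of HoxA with over without Cdx2 was 4.14, 2.23, 1.76 and 1.73 at 0, 0.75, 3 and 12 ng/ml with the gate at 10000 UMIs, and 9.96 in FGFRi and 2.77 at 0 ng/ml with at least 2 Cdx2 UMIs. At Leiden resolution 0.5 the highest and lowest cluster levels were 460 and 7.92 CPM. With the cluster shares held, the ratios from 0.75 to 12 ng/ml at this resolution, a setting chosen after seeing the data, were 1.01 for Hoxa7 and 1.02 for the HoxA sum. The finer clusters, also compared after seeing the data, turned the FGFRi to 0 ng/ml direction of Hoxa2 and Hoxa3 in the cells of cluster 1 to ratios of 1.49 and 1.65 in 1 of its 2 main parts, and kept the directions of the HoxA sum from 0 to 12 ng/ml. Apart from depth, the cause of these moves was not tested. Levels under about 1 CPM, as for Hoxa6, rest on few UMIs.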
